A study of Mus musculus with 4 samples.

Results

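Rab GTPases are small switch proteins that, when loaded with GTP, sit on a particular membrane and recruit the proteins that tether, move or fuse it. Each is turned on by an exchange factor, turned off by a GTPase-activating protein, and drawn off the membrane in its inactive form. Rab3 GAP is a complex of a catalytic subunit, Rab3gap1, and a non-catalytic subunit, Rab3gap2. It inactivates Rab3 proteins, which govern regulated secretion, and also acts as the exchange factor of Rab18 at the endoplasmic reticulum. Loss of either subunit, or of Rab18, causes Warburg Micro syndrome in people. In neutrophils, Rab proteins direct phagosome maturation and the release of preformed granules.

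The transcripts described here are those of the Rab family (gene symbols made of Rab, a number and at most 1 further letter) and of both Rab3 GAP subunits. The rule found 61 genes, 59 Rab genes and 2 subunits, among the 54532 genes counted. The group was put forward because Rab3gap2 was among the genes most raised by the treatment in these same libraries. Its difference between groups is therefore a description and carries no test, and the other members came in by name. The RNA came from PMN-MDSC, the polymorphonuclear kind of myeloid-derived suppressor cell, which resembles a neutrophil and dampens T cell responses. They were purified from spleens of newborn C57BL/6 mice and treated over 5 days. The groups are NECA, an agonist of adenosine receptors (2 libraries), and DMSO, a solvent that serves as the control without NECA (2 libraries). The labels do not say if replicate libraries stem from different animals or cultures, so the p-values measure only the spread between these libraries, which may be technical.

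Total counts ran from 15864120 to 18712625 per library. The labelled cell type was checked on 12 neutrophil markers, which summed to 123100 and 128700 CPM (counts scaled to a common library size) under DMSO, against 137000 and 137900 CPM with NECA, with 2 of the 12 higher and 0 lower. Markers of other cells were also present. Of 20 monocyte and macrophage markers, 15 were lower and 0 higher with NECA (edgeR, adjusted p under 0.05), and they summed to 1401 and 1297 CPM under DMSO against 904 and 829 CPM under NECA. Of 11 tested B cell markers 1 was lower and 0 were higher, with sums of 156 and 164 CPM against 85.1 and 14.3 CPM, and Ebf1 and Vpreb1 were at 0 in NECA replicate 2. Erythroid markers summed to 1249 and 544 CPM in the 2 controls, then 384 and 60.7 CPM after NECA, with 0 of 11 tested markers called. Dendritic cell markers summed to 143 and 140 CPM in the controls and 76.0 and 12.5 CPM after NECA, with 1 of 7 tested lower and 0 higher. T and NK cell markers summed to 31.5 and 34.8 CPM in the controls and 19.7 and 20.3 CPM after NECA, with 0 of 7 tested called. In bulk RNA, fewer cells of a type and less RNA per cell cannot be told apart.

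The windows upstream of both Rab3 GAP genes are shown because the subunits of this complex are the point of comparison for the main result. They are the 250 bases before the RefSeq transcription start on GRCm38.p6, both on the plus strand of chromosome 1, at chr1:185203918-185204167 for Rab3gap2 and chr1:127868523-127868772 for Rab3gap1. The last 51 bases of the Rab3gap2 window lie inside the gene as GENCODE M21 annotates it and are not printed, so that 199 bases are shown (chr1:185203918-185204116). Capitals mark whole matches, on either strand, to the motifs searched.
Rab3gap2 upstream: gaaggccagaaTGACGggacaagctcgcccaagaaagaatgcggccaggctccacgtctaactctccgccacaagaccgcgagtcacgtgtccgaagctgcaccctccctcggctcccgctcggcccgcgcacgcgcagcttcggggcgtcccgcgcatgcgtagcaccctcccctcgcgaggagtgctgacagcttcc
Rab3gap1 upstream: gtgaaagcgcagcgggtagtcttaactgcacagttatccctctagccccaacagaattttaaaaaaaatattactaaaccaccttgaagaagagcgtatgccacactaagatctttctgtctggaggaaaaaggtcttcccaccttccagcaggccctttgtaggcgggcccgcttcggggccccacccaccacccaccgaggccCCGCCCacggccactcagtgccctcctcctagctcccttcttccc
The motifs were the cAMP response element (TGACGTCA), its core TGACG, which the full element contains, the CCAAT box, the GC box (GGGCGG) and the ETS core (CCGGAAG). The Rab3gap2 window held 1 TGACG, 1 GC box and 1 ETS core, and the Rab3gap1 window held 1 GC box. In the Rab3gap2 window, the ETS core runs across the GENCODE gene start and the GC box lies inside the gene, so neither is marked. Of 32851 upstream windows of the same length, 17.8% held TGACG, 32.7% a GC box, 6.9% an ETS core, 33.8% a CCAAT box and 1.5% the full TGACGTCA. Among the 38 tested members with an entry, 22 held TGACG, 30 a GC box, 21 a CCAAT box, 4 an ETS core and 1 the full element. Members were counted by gene, as a match in any window of the gene. The shares above count each window alone, whether or not its gene was expressed, so these counts cannot be set against them. The Rab3gap2 window had a GC content of 68.4% and the Rab3gap1 window 55.2%, against a median of 52.4% over all windows. A match describes letters only and does not show that a factor binds there.

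Rab3gap2 RNA was higher with NECA in both libraries, while the groups of its partner subunit overlapped. Rab3gap2 (ENSMUSG00000039318, chromosome 1, 185204117 to 185286759, GRCm38) had 1492 and 1474 counts with DMSO and 2268 and 2070 counts with NECA. Scaled to library size, these were 78.0 and 78.3 CPM in the DMSO libraries, and 124.6 and 133.8 CPM in those given NECA. The DMSO libraries were nearly equal. Means were 78.1 ± 0.230 and 129.2 ± 6.51 CPM (SD, n = 2 each), a 1.65-fold difference and a log2 fold change of 0.72 (SE 0.07). Rab3gap1 (ENSMUSG00000036104, chromosome 1, 127868773 to 127943868) had 34.7 and 36.3 CPM under DMSO against 36.1 and 38.0 CPM under NECA, so that its groups overlapped. Its log2 fold change was 0.06 (SE 0.09, edgeR adjusted p = 0.829), with a 95% interval of -0.14 to 0.26. Per kilobase, Rab3gap2 stood above Rab3gap1 in each library. FPKM values are fragment counts scaled to exon length and by a factor per library. The ratio of the FPKM of Rab3gap2 to that of Rab3gap1 was 2.44 and 2.35 with DMSO and 3.75 and 3.83 with NECA.

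**Figure D1:**
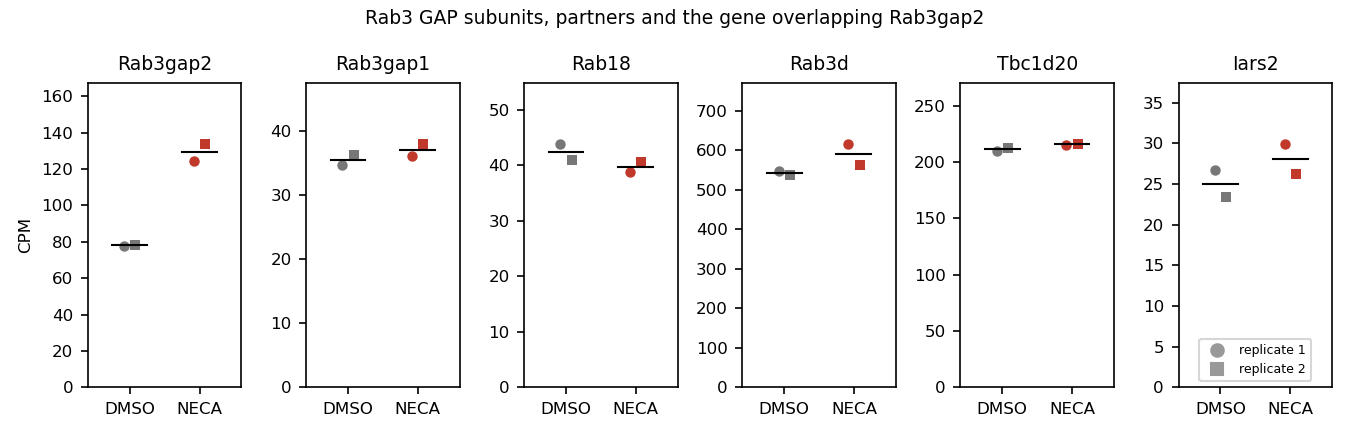
CPM (linear axes from 0) of Rab3gap2, Rab3gap1, Rab18, Rab3d, Tbc1d20 and Iars2 in each library, circles for replicate 1 and squares for replicate 2, with a line at each group's mean. Both NECA libraries of Rab3gap2 (124.6 and 133.8 CPM) lie above both DMSO libraries (78.0 and 78.3 CPM), while Rab3gap1 stays between 34.7 and 38.0 CPM.

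The counts of Rab3gap2 have 1 known ambiguity. Its 3' end overlaps Iars2, a mitochondrial isoleucyl-tRNA synthetase gene on the opposite strand, over 2034 of its 10800 exonic bases, and the use of strand in counting is not given in the sources used here. Iars2 had 26.8 and 23.4 CPM in the 2 controls, then 29.9 and 26.2 CPM after NECA (log2 fold change 0.17, adjusted p = 0.564). With the Iars2 counts added to it, a check chosen after seeing the data, the log2 fold change of Rab3gap2 was 0.61. The part of shared reads in the value of Rab3gap2 was not tested. Rab3gap1 in turn shares a stretch of 1335 bases, at 96.8% identity, with a transcript of Noct, which encodes nocturnin and itself rose (log2 fold change 0.36, adjusted p = 0.0412). Noct was 1 of 20 genes that matched Rab3gap1 at 95% identity or more over at least 300 bases. Another was Slc38a6 (1333 bases at 97.1%), with a mean of 251.8 counts against 1044.5 for Noct. The handling of reads that match more than 1 gene is not given in the sources used here, so the counts of Rab3gap1 are uncertain.

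Of the Rab genes whose proteins Rab3 GAP acts on, 0 were called. Rab3d, the Rab3 of secretory granules in many blood and exocrine cells, had 548 and 538 CPM in the DMSO libraries, and 617 and 563 CPM in those given NECA. These groups did not overlap, but the log2 fold change was 0.12 (SE 0.05) and the adjusted p was 0.317 by edgeR. Rab3a, the Rab3 of nerve endings, was near the limit of detection, with 25, 35, 26 and 44 counts in the order DMSO 1, DMSO 2, NECA 1, NECA 2. Rab3b had at most 5 counts in any library and Rab3c had 0 in all 4. Rab18, which marks the endoplasmic reticulum and lipid droplets, had 43.8 and 40.9 CPM under DMSO against 38.8 and 40.6 CPM under NECA. Its value was -0.09 (SE 0.09, adjusted p = 0.686), with a 95% interval of -0.29 to 0.10. Tbc1d20, a Rab18 regulator whose loss causes the same syndrome, had 209.8 and 212.9 CPM in the 2 controls, then 215.4 and 216.2 CPM after NECA (log2 fold change 0.03, adjusted p = 0.866).

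Over the family, 42 of the 61 members had enough counts to be tested, and these alone enter the counts that follow. Rab3gap2 was the 1 member called higher at an adjusted p under 0.05 (edgeR's quasi-likelihood test, adjusted over all genes), and 0 were called lower. Across all 13083 genes tested, 0.352% were called higher and 0.978% lower (1.33% in either direction). As Rab3gap2 brought the family forward, nothing is read from that count. Of the other 41 tested members 0 were called, and 7 had an unadjusted p under 0.05, of which 6 were higher and 1 lower. By that measure 6.81% of all genes tested were higher and 8.88% lower. These 7 all had a mean of at least 10 CPM. The share of genes at that level was not counted, so nothing is read from the 7. Rab44 passed only without NECA replicate 1 (log2 fold change 0.18) and Rab32 only without NECA replicate 2 (0.32). These fits leave 1 library in the NECA group. Calls over all genes also changed with the library left out, so nothing is read from these 2 genes. DESeq2 called 0 of the 41 as well, but it gave no adjusted p for Rab2b and Rab39, which could thus not be called. Limma on log2 FPKM called 0 of all 42.

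**Figure D2:**
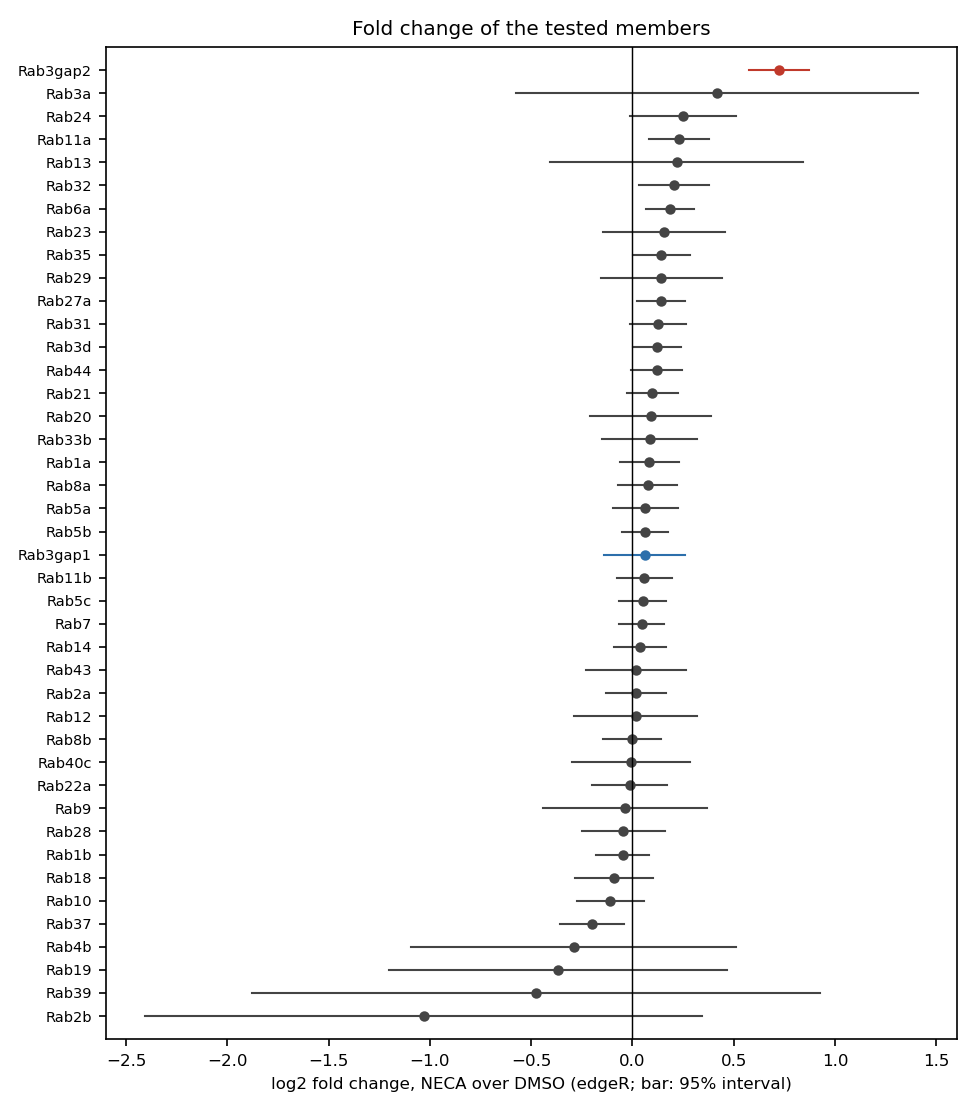
Log2 fold change (x axis, NECA over DMSO, edgeR) of each of the 42 tested members, with its 95% interval as a bar, in order of the value. Rab3gap2 (red, 0.72) has the highest value and Rab3gap1 (blue, 0.06) lies in the middle of the family. The widest bars belong to members with few counts such as Rab2b (-1.03, the lowest value) and Rab39.

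The precision of these libraries limits how large a change between them could have been missed. Besides Rab3gap2, 35 tested members had a mean of at least 10 CPM, with log2 fold changes from -0.20 to 0.25 and SEs from 0.05 to 0.19. For all 35, the 95% interval from edgeR lay within a 1.5-fold change in either direction. These intervals are not adjusted over the 35 and rest on the spread between these libraries, which may be technical. They do not exclude larger changes between animals or cultures. The other 6 tested members, below 10 CPM, had values from -1.03 to 0.42 with SEs from 0.29 to 0.64, and changes of that size were not detectable at their depth.

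**Figure D3:**
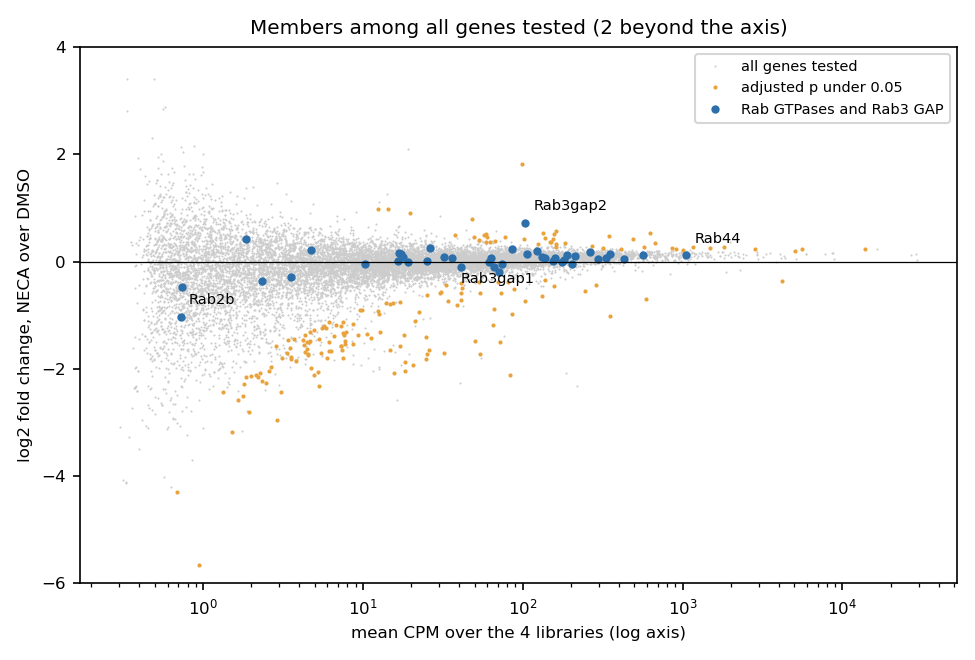
Log2 fold change (y axis, NECA over DMSO) against mean CPM (x axis, log scale) for all 13083 genes tested, 2 of which lie beyond the axis. Genes at adjusted p under 0.05 are orange and the 42 tested members blue. Among members of at least 10 CPM, Rab3gap2 at 0.72 lies above the others, which run from -0.20 to 0.25. Members with fewer counts spread more widely, down to Rab2b at -1.03.

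Small differences within the family leaned upward under the main scaling. Values lay above 0 for 29 of 42 tested members (69%), with a median log2 fold change of 0.06, against 48.6% and a median of -0.01 over all genes tested. Rab genes are mostly well expressed, and genes of at least 10 CPM leaned the same way: 58.5% of 7169 such genes lay above 0 (median 0.03), against 27 of 36 members (75%, median 0.06). For 18 of the 42 both NECA libraries lay above both DMSO libraries, and for 4 both lay below. Of all genes tested, 22.4% and 24.3% did so. Among the 36 members of at least 10 CPM, 18 (50%) lay above and 3 (8.33%) below, against 30% and 17% of genes at that level. The counts of members in this paragraph include Rab3gap2, whose rise put the family forward, among the higher ones. They also depend on the scale. Library size alone, a scaling chosen after seeing the data, moved the median of all genes to -0.08. With it, 19 of 42 members lay above 0 (median -0.01). On that scale both NECA libraries lay above both DMSO libraries for 7 members and below for 6. The share of all genes that did so on that scale was not counted, so nothing is read from the 7 and the 6.

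The level of each Rab gene was compared per kilobase of exon. The most abundant was Rab44, a large Rab with a calcium-binding EF-hand region that is found in blood cells, at 208.0 and 188.7 FPKM with DMSO and 207.8 and 225.5 FPKM with NECA. Next came Rab7, the Rab of late endosomes and lysosomes (159 to 170 FPKM over the 4 libraries), and Rab3d (128 to 147 FPKM). Rab5c of early endosomes (131 to 137 FPKM) overlapped Rab3d in range, and so the order of these neighbours is not resolved. Rab1b, which carries cargo from the endoplasmic reticulum to the Golgi, had 106 to 113 FPKM, and Rab27a, which docks granules at the plasma membrane, 84.05 to 97.48 FPKM. These 6 genes held 52.6% to 53.2% of the summed FPKM of all 61 members in the 4 libraries. The sum itself was 1551 and 1542 FPKM with DMSO and 1657 and 1631 FPKM with NECA. The deposited FPKM followed the scale of the CPM more closely than total counts. With library size alone, the median log2 fold change of the tested members was -0.01, so the difference between these sums depends on the scale. Rab3gap2 ranked 28 of 61 and Rab3gap1 35, at means of 9.60 and 3.09 FPKM.

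**Figure D4:**
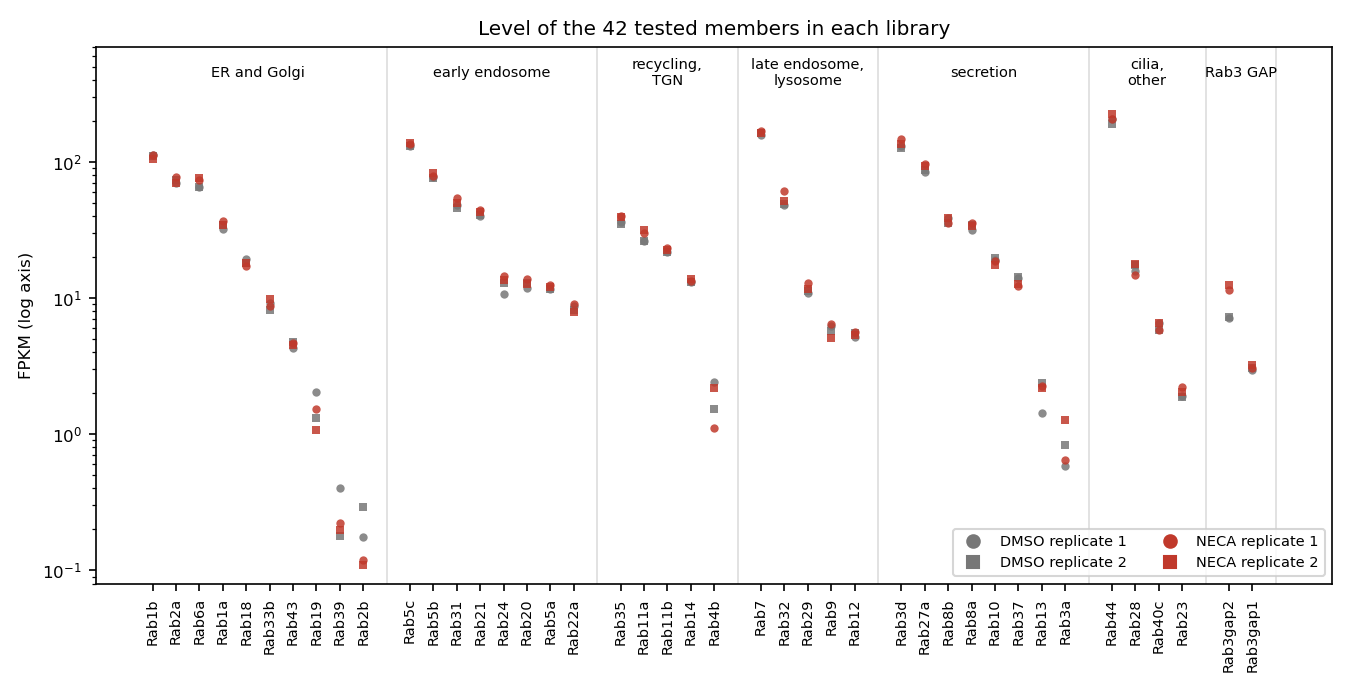
FPKM (y axis, log scale) of the 42 tested members in each of the 4 libraries, grouped by the membrane each Rab is best known for (TGN, trans-Golgi network) and ordered by level within the group. Grey and red points (DMSO and NECA) coincide for nearly all abundant members, and the red points of Rab3gap2 (11.6 and 12.4 FPKM) stand above its grey points (7.20 and 7.22 FPKM).

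Among Rab genes of the endoplasmic reticulum and Golgi, 10 of 14 were tested and 0 were called (median log2 fold change -0.02). Rab6a, which acts in transport within and from the Golgi, had 246.1 and 245.1 CPM in the DMSO libraries, and 274.0 and 284.1 CPM in those given NECA. Its groups did not overlap, and its value was 0.18 (SE 0.05, adjusted p = 0.12). Rab1b had 208.7 and 205.4 CPM under DMSO and 206.4 and 194.0 CPM under NECA (-0.05). Rab2a, a Golgi and autophagosome Rab, had 151.2 and 158.4 against 164.5 and 148.6 CPM (0.02). The groups of both overlapped. The paralogues were used unequally: the FPKM of Rab1b was 3.06 to 3.52 times that of Rab1a, and that of Rab2a 253 to 650 times that of Rab2b, in the 4 libraries. Rab2b (14, 23, 9 and 7 counts), Rab39 (23, 10, 12 and 9) and Rab19 (62, 39, 44 and 26 counts, libraries in the same order as above) had the lowest values of the family, -1.03, -0.48 and -0.37. Their SEs of 0.63, 0.64 and 0.38 leave these values unresolved from 0 (adjusted p = 0.478, 0.796 and 0.722). The value of Rab39 was 0.23 without DMSO replicate 1.

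Of the early endosome and phagosome Rabs, 8 of 9 were tested and 0 called (median 0.08), and they held 22.0% of the family's FPKM. All Rab5 isoforms, which drive fusion of early endosomes, were present at steady ratios, with Rab5c at 11.0 to 11.4 times and Rab5b at 6.37 to 6.84 times the FPKM of Rab5a. Rab5c had 288.0 and 290.5 CPM under DMSO and 298.7 and 300.7 CPM under NECA, and Rab5b 327.0 and 322.5 against 332.3 and 345.8 CPM. Although these groups did not overlap, the log2 fold changes were 0.05 for Rab5c and 0.06 for Rab5b (adjusted p = 0.718 and 0.645). Rab31, a Rab5 relative of endosomes and the trans-Golgi network, had 186.4 and 176.9 CPM under DMSO against 205.6 and 191.1 CPM under NECA (0.13, adjusted p = 0.359). Rab21, an integrin-trafficking Rab, had 203.6 and 207.9 against 224.2 and 216.1 CPM (0.10, adjusted p = 0.449). Rab24, linked to autophagy, had the second value of the family among members of at least 10 CPM, at 0.25 (SE 0.12, adjusted p = 0.348). It had 21.7 and 26.1 CPM in the 2 controls, then 29.3 and 27.5 CPM after NECA. Its counts are uncertain, since 62.4% of its exonic bases lie under Prelid1, a far more abundant gene on the other strand.

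Of the recycling Rabs, 5 of 8 were tested and 0 called (median 0.06). Rab11a, the Rab of the recycling endosome, had 78.7 and 79.0 CPM in the DMSO libraries, and 90.7 and 94.3 CPM in those given NECA. Both NECA libraries were higher by more than the gap between replicates, but the value of 0.23 (SE 0.07) did not pass over all genes (adjusted p = 0.121). Its paralogue Rab11b stood at 0.06 (SE 0.06) and was at a similar FPKM, Rab11a being 1.20 to 1.40 times as high. That order depends on length: Rab11b had 133.7 to 142.0 CPM over 6130 exonic bases, against 2992 bases for Rab11a. A pseudogene 99.8% identical to Rab11b over 654 bases had a mean of 182.0 counts. Rab35, of fast recycling, stood at 0.14 (adjusted p = 0.314). Rab4b had 92, 57, 40 and 66 counts with replicates of each group far apart, and a value of -0.29 (SE 0.37) that was above 0 without DMSO replicate 1 (0.09) or without NECA replicate 1 (0.12). The counts of Rab4b are also uncertain, since it shares 1280 of its 1970 exonic bases with Gm21983 on the same strand. The handling of reads that match both genes is not given.

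Of the Rabs of late endosomes, lysosomes and related organelles, 5 of 10 were tested and 0 called (median 0.04). Rab7 had 416.8 and 427.3 CPM under DMSO against 442.9 and 427.8 CPM under NECA (0.04, SE 0.05, adjusted p = 0.748). Rab32, which serves lysosome-related organelles and restricts bacteria in macrophages, had 113.3 and 114.9 CPM in the 2 controls, then 142.6 and 120.3 CPM after NECA. The difference came mostly from NECA replicate 1, and the value of 0.20 did not pass (adjusted p = 0.235). Its close relative Rab38 had 8, 15, 4 and 0 counts. Rab7b had at most 17 counts, and Rab9b had none.

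The Rabs of regulated secretion are those nearest to granule release, and 8 of 12 were tested and 0 called (median 0.10). Rab27a had 327.0 and 342.6 CPM in the DMSO libraries, and 377.7 and 361.0 CPM in those given NECA, without overlap (0.14, SE 0.05, adjusted p = 0.227). Rab27b, its partner in granule docking in several blood cells, had 6 counts in DMSO replicate 1, 1 in NECA replicate 2 and 0 in the others. Rab37, a secretory granule Rab of mast cells, had the lowest value among members of at least 10 CPM. It had 75.8 and 76.5 CPM under DMSO against 65.5 and 67.1 CPM under NECA, a difference of -0.20 (SE 0.07, adjusted p = 0.192). Markers of basophils, mast cells and eosinophils summed to 417 and 409 CPM in the 2 controls, then 439 and 424 CPM after NECA, with 1 of 11 tested lower. Rab10, of transport to the plasma membrane, had 67.0 and 69.4 against 65.6 and 60.9 CPM, with both NECA libraries below both DMSO libraries (-0.11, adjusted p = 0.553). Rab8a and Rab8b were at nearly the same FPKM, with ratios of Rab8b to Rab8a from 1.003 to 1.219, and stood at 0.07 and -0.00020. Rab13 (63, 103, 95 and 77 counts) stood at 0.22 (SE 0.29).

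In the remaining group, 4 of 6 were tested and 0 called. Rab44 had 1056 and 959 CPM in the DMSO libraries, and 1051 and 1139 CPM in those given NECA, with overlapping groups (0.12, SE 0.06, adjusted p = 0.336). Rab28 and Rab23, both linked to cilia, stood at -0.04 and 0.15, and Rab40c, which recruits a ubiquitin ligase, at -0.01. Of the 19 members below the filter, Rab17, Rab40b, Rab3c, Rab39b and Rab9b had no count in any library, which allows up to 3 counts, or 0.160 to 0.189 CPM by total counts, in a library (counting error only). The other 14 were Rab4a, Rab38, Rab25, Rab7b, Rab15, Rab3b, Rab42, Rab33a, Rab6b, Rab36, Rab30, Rab34, Rab27b and Rab26, with at most 20 counts in a library and a mean of at most 0.283 FPKM.

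Regulators and effectors of Rabs, with the SNARE machinery of granule exocytosis, were taken as 5 lists of 136 genes, of which 118 were tested. By edgeR's test over all genes 1 was higher (0.847%) and 2 were lower (1.69%), beside 0.352% and 0.978% of all genes tested. The median log2 fold change was 0.02. Of 33 tested exchange factors, 1 rose, 1 fell and 31 did not pass. Dennd3, an exchange factor of Rab12, rose from 121.7 and 136.5 CPM to 164.0 and 170.2 CPM, a log2 fold change of 0.37 (SE 0.07, adjusted p = 0.0254). Rab12 itself, a lysosome-directed Rab, stood at 0.02 (SE 0.14). Rab3il1, an exchange factor of the Rab8 and Rab3 type, fell from 8.94 and 6.75 CPM to 3.41 and 2.33 CPM, a change of -1.44 (SE 0.27, adjusted p = 0.0264). Sbf2, a myotubularin-related exchange factor, had 2.87 and 4.20 against 1.54 and 1.23 CPM, a value of -1.34 that did not pass (adjusted p = 0.1). The Rab3 exchange factor Madd had 80.4 and 80.1 CPM under DMSO against 90.1 and 84.4 CPM under NECA (0.12, adjusted p = 0.449).

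Of 33 TBC-domain GTPase-activating proteins, 0 rose, 0 fell and 33 did not pass. The smallest p-value belonged to Tbc1d9, with 4.23 and 4.78 CPM under DMSO and 2.03 and 0.840 CPM under NECA (-1.62, adjusted p = 0.0709). Tbc1d9 was called lower without NECA replicate 1 (-2.41, adjusted p = 0.0001652) and when genes were not filtered on counts (-1.62, adjusted p = 0.0002058). Tbc1d16, at 1.93 and 1.06 against 0.330 and 0.452 CPM, stood at -1.93 (adjusted p = 0.137). Tbc1d10b, at 295.3 and 295.4 against 333.2 and 325.9 CPM, stood at 0.16 (adjusted p = 0.16). Of 30 tested effectors, 0 rose, 1 fell and 29 did not pass. The 1 lower gene was Rims3, at 7.37 and 5.90 CPM in the 2 controls, then 2.42 and 2.26 CPM after NECA (-1.50, SE 0.27, adjusted p = 0.0203). Rims3 belongs to the RIM family, but its short product lacks the Rab-binding region of its longer relatives. Macrophage markers, which summed to 1401 and 1297 CPM in the DMSO libraries, and 904 and 829 CPM in those given NECA, moved the same way as Rab3il1 and Rims3. Their median log2 fold change was -1.49. Medians were also low for markers of B cells (-1.69), dendritic cells (-1.64), erythroid cells (-1.76) and T and NK cells (-1.51). The other marker lists had medians from -0.63 to 0.17. The part of any of these cells in the falls of Rab3il1 and Rims3 was not tested. The calls of Dennd3, Rab3il1 and Rims3 were lost without DMSO replicate 1 (adjusted p = 0.18, 0.182 and 0.1615), that of Rab3il1 also without DMSO replicate 2 (adjusted p = 0.0508), that of Dennd3 with library size alone (adjusted p = 0.0505), and all 3 with limma on log2 FPKM.

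Rab11fip4, a Rab11 effector, had 72.6 and 70.3 against 85.7 and 83.3 CPM (0.24, adjusted p = 0.112). Plekhm1, a Rab7 effector, had 237.5 and 239.0 against 275.0 and 259.2 CPM (0.16, adjusted p = 0.176). Unc13d, which primes granules together with Rab27a, had 330 and 332 CPM under DMSO against 348 and 347 CPM under NECA (0.07, adjusted p = 0.565). The synaptotagmin-like effector Sytl1 stood at -0.11 (adjusted p = 0.633). Of 8 tested genes of Rab prenylation and membrane extraction, 0 were called. Rabggtb, a subunit of the prenylating enzyme, stood at -0.18 (9.20 and 8.76 against 8.02 and 7.88 CPM) and the chaperone Rabif at 0.05 (65.9 and 60.2 against 64.7 and 66.3 CPM). Of 14 tested genes of the SNARE machinery of granule exocytosis, 0 were called. Stx11, a syntaxin of blood cells, had 210.1 and 234.6 against 257.2 and 256.1 CPM (0.21, adjusted p = 0.13). Its partner Stxbp2 had 475.0 and 483.3 against 521.9 and 534.4 CPM (0.14, adjusted p = 0.18). Stx3, a plasma membrane syntaxin, had 1.88 and 0.956 against 1.15 and 0.711 CPM (-0.59, adjusted p = 0.671). Both NECA libraries of Stx11 and Stxbp2 lay above both DMSO libraries.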

How the data were processed

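Per the file headers, each library has a deposited column of read counts and another of FPKM over Ensembl genes. The submitters' processing notes list HISAT, StringTie and edgeR (no versions) and, as builds, mm10 and GRCm38. Not given in the sources used here were the counter, annotation release, strand use and treatment of multiply matching reads. For 34 of 37 members with at least 50 counts in every library, the length behind the deposited FPKM was, up to 1 common factor (tolerance 0.001), the summed exons of GENCODE M21, so an FPKM is lowered by rarely used exons.

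Counts were analysed in R 4.3.3 with edgeR 4.0.16: filterByExpr (minimum count 10), TMM scaling and the quasi-likelihood test of NECA against DMSO with 2 residual degrees of freedom and no block. P-values were Benjamini-Hochberg adjusted over 13083 genes (threshold 0.05), and each SE came from the log2 fold change and its F statistic. The fit was tested on simulated data. CPM use TMM-scaled library sizes. DESeq2 1.42.0, limma 3.58.1 on log2(FPKM + 1) and log2(FPKM + 0.1), other filters and scalings (library size alone, the addition of pseudogene copies and that of Iars2 were chosen after seeing the data), the replicate number as a block and each library left out were alternatives. Near-identical copies were sought by blastn (95% identity over at least 300 bases). Replicates differed by more than sampling noise (chi-square over its degrees of freedom, DMSO 6.74, NECA 5.24).

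The members and lists were chosen with earlier results of these data known. Values per library are given for both Rab3 GAP subunits, called members, the 12 with the highest FPKM and the 6 highest and 6 lowest fold changes among tested members, and for called regulators and up to 3 per list with the smallest p, of which 1 is not reported here. Other genes named, such as Rab18, Tbc1d20, Madd, Unc13d and Sytl1, were chosen after their values were seen. Of 309 listed symbols, 2 matched no gene. Upstream windows are from RefSeq (GRCm38.p6), where 50 of 61 members had an entry.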

Additional observations from a re-analysis of the deposited data

How the results depend on the processing

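With 2 libraries a group, the calls depend on the test and on single libraries, while the value of Rab3gap2 stayed between 0.61 and 0.78 on the log2 scale. With limma on log2(FPKM + 1) and log2(FPKM + 0.1) it stood at 0.66 and 0.72. In both, 0 members (Rab3gap2 included) and 0 regulators were called in either direction. Of all genes, 1 was higher and 0 lower. Over all genes, 143 were higher with DESeq2 (157 lower), 285 higher and 590 lower without a count filter, and 21 higher and 217 lower with library size alone; the cause was not tested. Without the filter 2 regulators were higher and 5 lower, and with library size alone 0 were higher. With library size alone, the median of the members was -0.011 and Rab3gap1 stood at -0.012, Rab7 at -0.027, Rab5c at -0.021, Rab5b at -0.010, Rab2a at -0.055 and Rabif at -0.0175. Leaving out each library in turn gave 8 to 227 higher and 45 to 594 lower genes, 1 to 2 members higher and 0 lower, 0 to 2 regulators higher and 0 to 3 lower, and 0.67 to 0.78 for Rab3gap2. Signs changed without DMSO replicate 1 for Rab2a (-0.011), Rab39 (0.23), Rab4b (0.09) and Rab13 (-0.10), without DMSO replicate 2 for Rabif (-0.0058), without NECA replicate 1 for Rab2a (-0.059) and Rab4b (0.12), and without NECA replicate 2 for Rab3a (-0.15). Over the libraries left out, Rab2a ran from -0.059 to 0.088, Rab39 from -0.94 to 0.23, Rab4b from -0.83 to 0.12, Rab13 from -0.10 to 0.63, Rab3a from -0.15 to 0.84 and Rabif from -0.0058 to 0.13. Same-numbered libraries did not deviate together (correlation 0.02). With the replicate number as a block, 123 genes were higher and 298 lower, 1 member was higher at 0.72 (Rab3gap2), 0 were lower, 1 regulator was higher and 3 were lower, among them Tbc1d9 (-1.69, adjusted p = 0.0276).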
